A study of Mus musculus with 35 samples.

Results

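The DNA replication machinery was examined as 54 listed genes in RNA-seq of mouse hematopoietic stem/progenitor cells (HSPCs). The genes were listed by known role, and all 54 were among the 11982 gene names of the deposited expression table and among the 11863 genes tested. They fell into 9 roles, from the recognition of replication origins to the supply of nucleotides and histones. Polyadenylated RNA was sequenced in 2 libraries from wild type (WT) mice and 2 libraries from JMJD1B-/- mice, labelled as biological replicates. Both genotypes carried the mixed strain background 129P2xC57BL/6J, and the knockout was a gene-trap allele of Kdm3b, the gene of the histone demethylase JMJD1B, derived from 129P2 embryonic stem cells. Mice in the study were adult and of both sexes, no agent is named for either group, and the HSPCs came from bone marrow. Neither the gate that defined the HSPCs nor the number of animals behind a library is given in the sources used here. If the libraries did not come from separate animals, the p-values measure only the spread between these samples, which may be technical. The 2 WT libraries differed in Xist and Y-linked transcripts, as given below, so they were not repeats of the same RNA. For the JMJD1B-/- libraries this is not known. The comparison asked how the transcripts of replication genes differed between JMJD1B-/- and WT HSPCs.

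DNA replication starts at origins, which are marked by the origin recognition complex and loaded with the MCM helicase before S phase. Kinases then turn the helicase on with the help of CDC45 and the GINS complex, and polymerases copy both strands around the sliding clamp PCNA, with one strand made as short Okazaki fragments that are later joined. Many of these genes are transcribed before and during S phase under E2F factors, so they are high in cycling progenitors and low in resting stem cells.

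Expression was given as RPKM, read numbers scaled to transcript length and library size, so that levels could be compared per length between genes. All 54 genes were well expressed. Their mean level in the 2 WT libraries ranged from 6.71 RPKM for Gins3 to 163 RPKM for Mcm6, with a median of 31.8 RPKM against 10.5 RPKM over all genes tested, and 52 of the 54 lay above that all-gene median. No gene of the list was under 6.41 RPKM in any library, and none was at 0. The depth of the libraries was estimated from the values, at 17500000 and 24600000 reads for the WT replicates and 6110000 and 21000000 reads for the JMJD1B-/- replicates, each uncertain by a factor of 2 except the last. So 3 reads on 1 kb are worth about 0.122 to 0.491 RPKM, far below every replication gene, and such a limit covers counting error only.

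**Figure D1:**
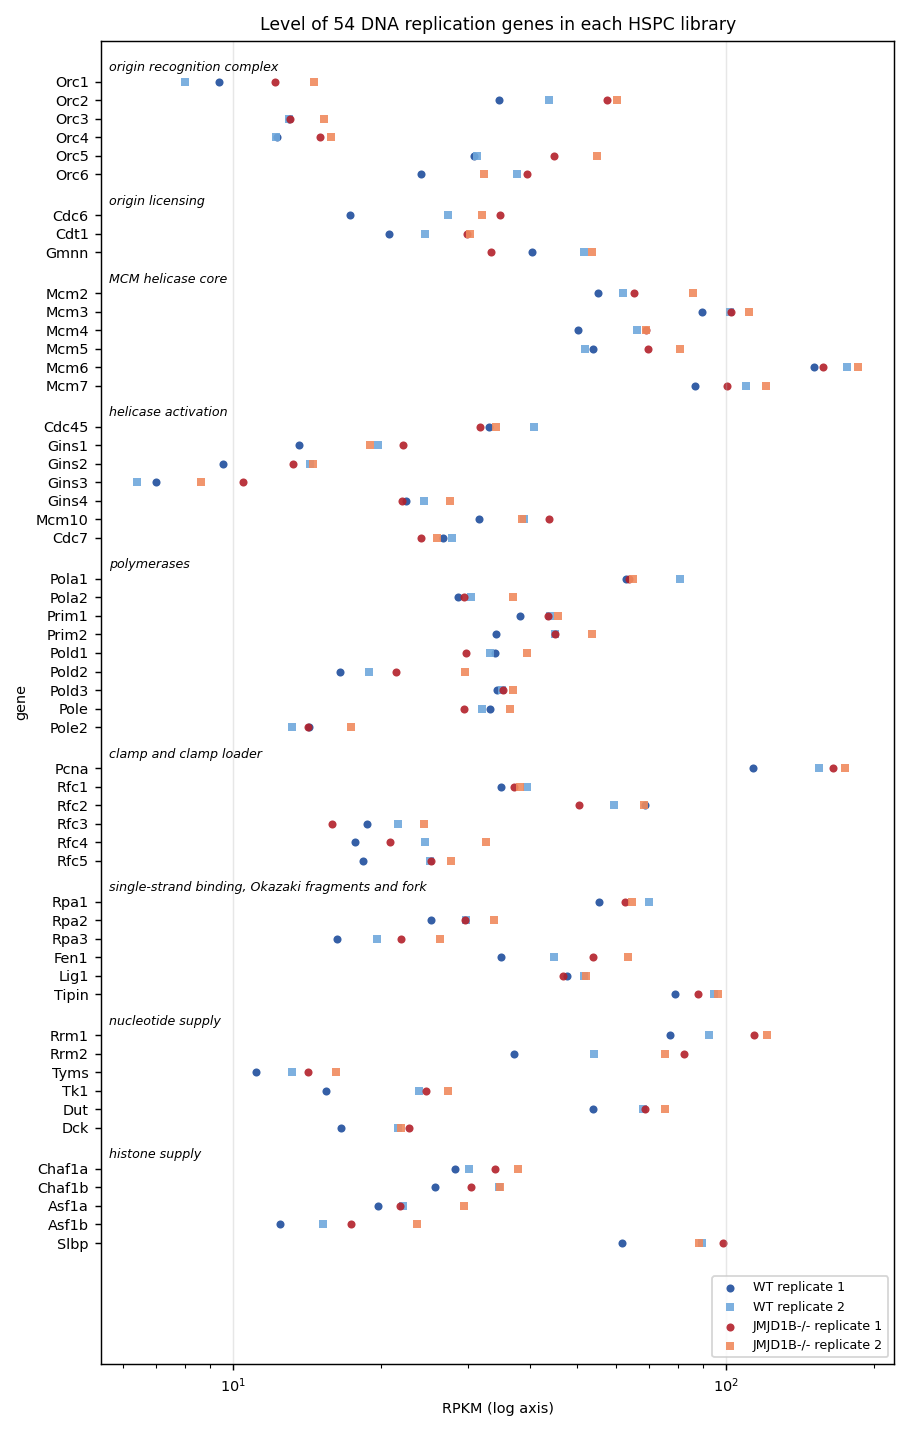
Level of each of the 54 genes in RPKM (log axis) in WT replicates 1 and 2 (dark and light blue) and JMJD1B-/- replicates 1 and 2 (red and orange), by role. In 27 genes, both JMJD1B-/- points lie to the right of both WT points, and in 39 genes the leftmost point is WT replicate 1.

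Replication transcripts tended to higher values in JMJD1B-/- HSPCs, by small amounts. The log2 fold change, JMJD1B-/- minus WT on log2(RPKM + 0.1), was above 0 for 47 of the 54 genes (87.0%), against 47.0% of all genes tested. Its median was 0.25 over the 54 genes and −0.025 over all genes tested, and the values ran from −0.16 for Cdc45 to 0.81 for Rrm2. The median over the 54 genes was 0.079 without WT replicate 1 and 0.40 without WT replicate 2. In 27 of the 54 genes each JMJD1B-/- library exceeded each WT library, where 20.1% of all genes did so. Only 1 gene, Cdc7, showed the opposite order, which 22.7% of all genes had. At an unadjusted p under 0.05 (limma, two-sided), 8 genes were higher (14.8%) against a background of 3.81%, and 0 were lower against a background of 6.33%. They were Orc1, Orc2, Orc5, Cdc6, Mcm5, Fen1, Rrm1 and Rrm2. After Benjamini-Hochberg adjustment over all genes tested, 0 of the 54 passed 0.05 in limma, with adjusted p from 0.320 to 0.994, and 0.0421% of all genes passed. A test run on each gene alone, with equal variances, gave 3 of the 54 past the unadjusted threshold (background 2.93%) and 0 past the adjusted one.

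The precision limits these statements. Standard errors of the 54 log2 fold changes were 0.17 to 0.28. The 95% interval included 0 for 46 genes, lay within 1 log2 unit of 0 for 44, reached above 1 for 10 and reached below −1 for 0. On simulated libraries of 11863 genes, limma found 33% of the 200 genes changed by 1.5-fold at an unadjusted p under 0.05. It found 0% of them after adjustment. The share found at the levels and standard errors of the 54 genes was not tested. The largest ratio of means among the 54 genes was 1.72. With 2 libraries per genotype, the smallest two-sided p of an exact permutation test is 0.333, and none was used.

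**Figure D2:**
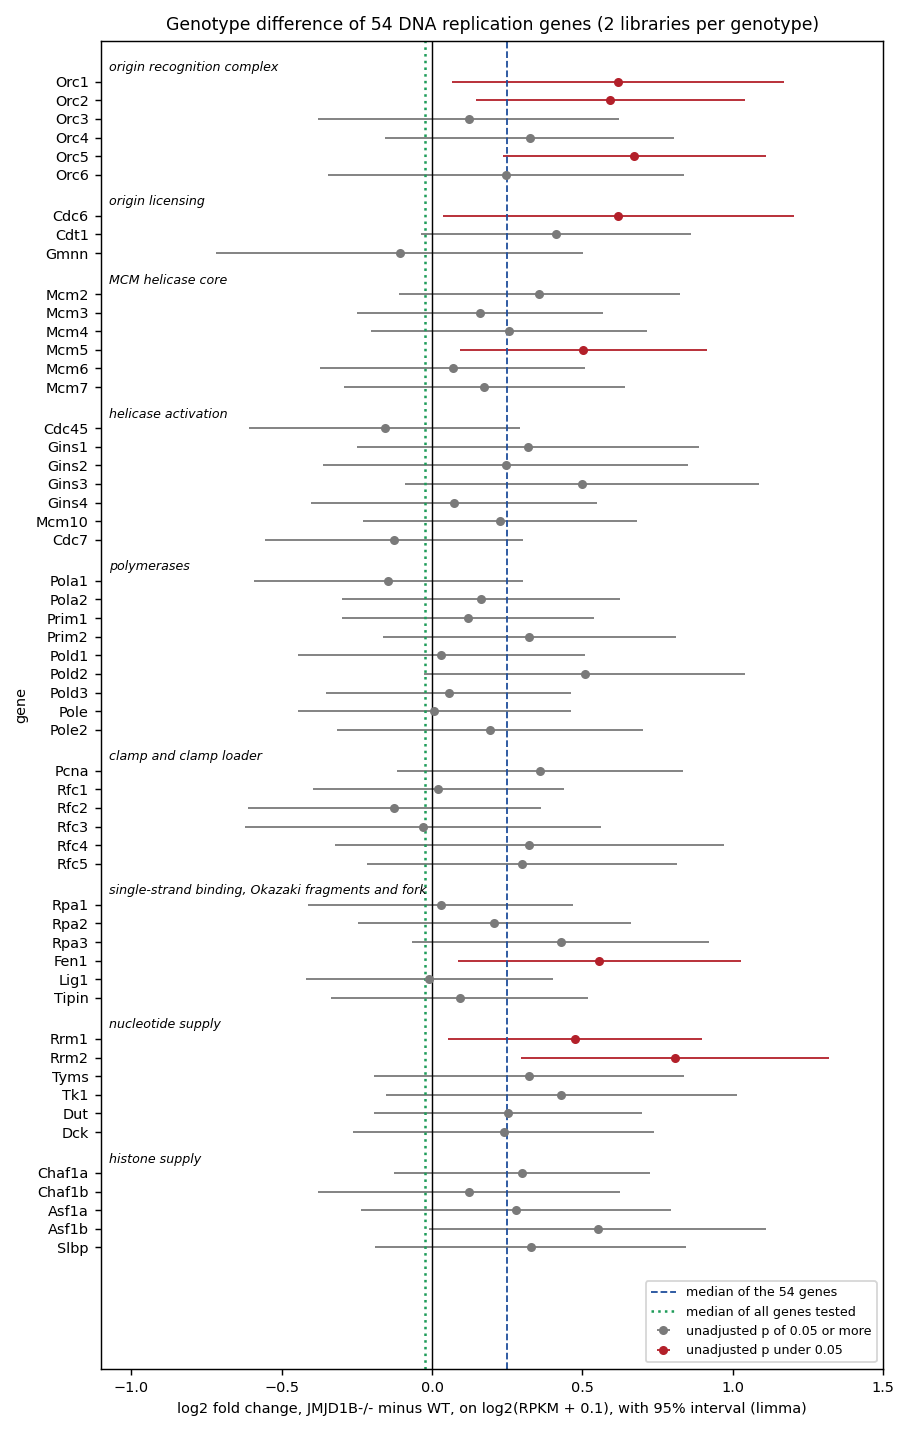
Log2 fold change of each gene, JMJD1B-/- minus WT, with its 95% interval from limma (2 libraries per genotype), by role. The 8 genes in red had an unadjusted p under 0.05, and the dashed and dotted vertical lines mark the median of the 54 genes at 0.25 and of all genes tested at −0.025.

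Promoters of the 4 called genes with the largest log2 fold changes (Rrm2, Orc5, Cdc6 and Orc1) are shown, because replication genes are known as targets of E2F and NF-Y. Each window holds 250 bases before the RefSeq transcript start and 50 bases after it in assembly GRCm38.p6, written 5′ to 3′ on the strand of the gene. Capitals mark matches to the E2F letters TTTGGCGC, TTTGCCGC, TTTCGCGC or TTTCCCGC, or to the NF-Y letters CCAAT, on either strand. Rrm2 lies at chr12:24708004-24708303 (plus strand), Orc5 at chr5:22550289-22550588 (minus strand), Cdc6 at chr11:98907901-98908200 (plus strand) and Orc1 at chr4:108579204-108579503 (plus strand).
Rrm2: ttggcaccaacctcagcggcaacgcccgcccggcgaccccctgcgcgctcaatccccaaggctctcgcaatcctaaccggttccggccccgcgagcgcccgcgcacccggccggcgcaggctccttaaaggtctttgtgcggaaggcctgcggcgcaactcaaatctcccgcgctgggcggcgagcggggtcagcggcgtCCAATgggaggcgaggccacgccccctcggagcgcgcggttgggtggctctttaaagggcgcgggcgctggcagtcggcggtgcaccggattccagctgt
Orc5: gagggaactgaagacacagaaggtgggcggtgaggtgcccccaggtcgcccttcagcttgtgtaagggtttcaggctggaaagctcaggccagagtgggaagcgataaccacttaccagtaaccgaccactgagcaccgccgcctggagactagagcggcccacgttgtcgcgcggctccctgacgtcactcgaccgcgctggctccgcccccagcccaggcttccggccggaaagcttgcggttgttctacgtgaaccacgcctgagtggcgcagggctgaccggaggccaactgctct
Cdc6: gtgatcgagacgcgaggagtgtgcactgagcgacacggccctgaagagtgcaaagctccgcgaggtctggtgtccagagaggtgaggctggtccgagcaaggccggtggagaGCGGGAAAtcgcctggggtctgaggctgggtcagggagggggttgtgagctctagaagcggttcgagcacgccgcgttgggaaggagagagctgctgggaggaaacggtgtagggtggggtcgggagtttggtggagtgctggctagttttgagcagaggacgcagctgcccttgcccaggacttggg
Orc1: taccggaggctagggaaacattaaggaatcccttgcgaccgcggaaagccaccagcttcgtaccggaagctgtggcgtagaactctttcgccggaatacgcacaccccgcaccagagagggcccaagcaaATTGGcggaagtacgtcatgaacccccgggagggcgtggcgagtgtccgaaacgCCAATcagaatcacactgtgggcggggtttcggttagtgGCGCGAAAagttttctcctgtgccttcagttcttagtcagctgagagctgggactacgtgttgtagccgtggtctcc

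The 4 windows did not share 1 layout. The Rrm2 window held a CCAAT match that begins 50 bases before the start and no E2F match. In Orc5 there was neither. Cdc6 had 1 E2F match, read as GCGGGAAA on this strand, and Orc1 had 1 E2F match, read as GCGCGAAA, and 1 NF-Y match in each orientation. Of the 54 genes, 45 had an entry in the promoter table, with 54 promoters among them. E2F letters were found in 27.8% of these promoters, against 3.99% of the promoters of all genes tested and 2.26% of all 32851 promoters. NF-Y letters were in 53.7%, against 38.5% and 37.4%. The letters GGGCGG of Sp1 were in 75.9%, against 61.7% and 35.7%, and the cell cycle homology region (CHR, TTTGAA or TTCGAA) was in 20.4%, against 14.1% and 19.2%. No motif contains another, and adjacent matches may share bases. The median log2 fold change was 0.16 in the 15 genes with E2F letters and 0.31 in the 30 without, and 0.25 in the 36 with Sp1 letters and 0.48 in the 9 without. For NF-Y it was 0.30 in 27 genes and 0.25 in the other 18, and for CHR it was 0.30 in 10 genes and 0.28 in the other 35. These medians are a description, and their differences were not tested. A match is a description of letters and shows no binding, and a missing match says only that these letters are not in this window.

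**Figure D3:**
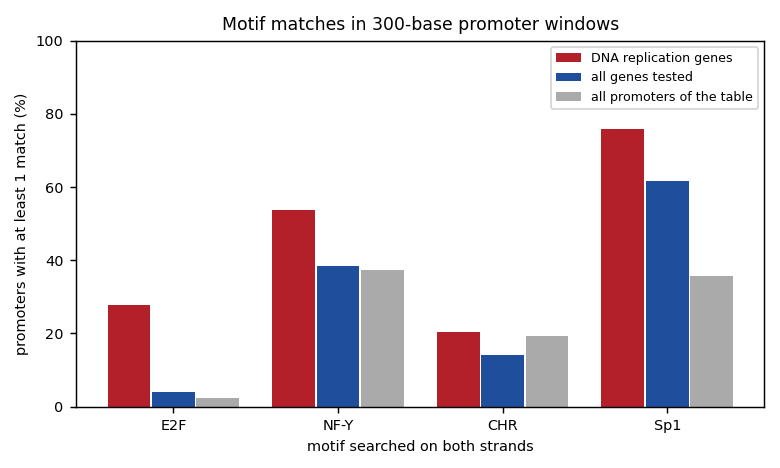
Share of 300-base promoter windows (%) with at least 1 match to each motif on either strand, for the 54 promoters of the replication genes (red), the promoters of all genes tested (blue) and all promoters of the RefSeq table (grey). The E2F bar stands at 27.8% in the replication genes and at 3.99% in all genes tested.

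The 6 subunits of the origin recognition complex, which binds origins and recruits the loading factors, had a median log2 fold change of 0.46, the highest of the 9 roles with all libraries. Without WT replicate 2 it was 0.53, against 0.54 for origin licensing. All 6 were above 0 (47.0% of all genes were), 5 had both knockout values above both WT values (20.1% of all genes), and 3 were called higher at an unadjusted p under 0.05 (3.81% of all genes). Orc5, a subunit of the ATPase ring, had 30.9 and 31.3 RPKM in WT and 44.9 and 54.9 RPKM in JMJD1B-/- HSPCs. The genotypes did not overlap, and the WT replicates were nearly equal. Its log2 fold change was 0.67 (SE 0.19, adjusted p = 0.333 in limma with Benjamini-Hochberg adjustment), from 31.1 ± 0.314 to 49.9 ± 7.05 RPKM (SD, n = 2 each). Orc1, the subunit whose ATPase drives helicase loading and which is made in step with the cell cycle, had 9.40 and 8.01 RPKM in WT and 12.2 and 14.6 RPKM in JMJD1B-/- HSPCs. It was the lowest of the 6 in level, and its libraries did not overlap between genotypes. The log2 fold change of Orc1 was 0.62 (SE 0.24, adjusted p = 0.451 in limma with Benjamini-Hochberg adjustment). Orc2, part of the core of the complex, had 34.6 and 43.8 RPKM in WT and 57.4 and 60.2 RPKM in JMJD1B-/- HSPCs, again without overlap. For Orc2 the log2 fold change was 0.59 (SE 0.19, adjusted p = 0.395 in limma with Benjamini-Hochberg adjustment). Orc3, a partner of Orc2 in the core, had the smallest value of the 6. Its levels were 13.0 and 13.0 RPKM in WT and 13.1 and 15.3 RPKM in JMJD1B-/- HSPCs, with a log2 fold change of 0.12 (SE 0.21). The values of Orc3 did not differ beyond their error. Orc4 and Orc6, the remaining subunits, had log2 fold changes of 0.32 and 0.25. The value of Orc6 was −0.074 without WT replicate 1 and 0.57 without WT replicate 2. The 2 WT values of Orc4 were nearly equal (12.3 RPKM each), and Orc4 was 1 of the 3 genes that passed an unadjusted 0.05 in the test of each gene alone, with Orc5 and Mcm5.

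Of the 3 genes of origin licensing, 2 had log2 fold changes above 0, and the median was 0.41. Cdc6, which loads the MCM helicase together with the origin recognition complex, had 17.3 and 27.3 RPKM in WT and 34.9 and 32.1 RPKM in JMJD1B-/- HSPCs. Both JMJD1B-/- values were above both WT values, but the WT replicates lay far apart. The log2 fold change of Cdc6 was 0.62 (SE 0.25, adjusted p = 0.477 in limma with Benjamini-Hochberg adjustment). Cdt1, the second loading factor, had 22.6 ± 2.74 RPKM in WT and 30.1 ± 0.335 RPKM in JMJD1B-/- HSPCs (SD, n = 2 each), and its log2 fold change was 0.41. Gmnn encodes geminin, the inhibitor of Cdt1. It had 40.4 and 51.5 RPKM in WT and 33.5 and 53.5 RPKM in JMJD1B-/- HSPCs, so that the genotypes overlapped fully, with a log2 fold change of −0.11 (SE 0.26). With each library left out in turn, the log2 fold change of Gmnn ran from −0.45 to 0.23.

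The 6 subunits of the MCM helicase core, the ring that unwinds DNA, were among the most abundant transcripts of the list, with mean WT levels from 52.9 RPKM (Mcm5) to 163 RPKM (Mcm6), a range of 3.09-fold. Mcm6 was the highest of the 6 in all 4 libraries, followed by Mcm3 and Mcm7, which changed places between libraries, and then by Mcm2, Mcm4 and Mcm5, whose order was not the same in all 4 libraries. All 6 had log2 fold changes above 0, with a median of 0.21. With quantile normalization 5 of the 6 did, as Mcm6 lay on the other side of 0, and the median was 0.11. It was 0.062 without WT replicate 1, 0.39 without WT replicate 2 and 0.13 without JMJD1B-/- replicate 2. Mcm5 had 53.8 and 51.9 RPKM in WT and 69.7 and 80.7 RPKM in JMJD1B-/- HSPCs. These libraries did not overlap, and Mcm5 was the only subunit at an unadjusted p under 0.05, with a log2 fold change of 0.50 (SE 0.18, adjusted p = 0.425 in limma with Benjamini-Hochberg adjustment). Mcm6 had 151 and 176 RPKM in WT and 157 and 186 RPKM in JMJD1B-/- HSPCs, with a log2 fold change of 0.07 (SE 0.19). Its replicates differed more than its genotypes did. Mcm2, Mcm3, Mcm4 and Mcm7 had log2 fold changes of 0.36, 0.16, 0.26 and 0.17.

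The 7 factors of helicase activation, which turn the loaded helicase into a moving fork, had values on both sides of 0, with 5 above and 2 below 0 and a median of 0.23. This median rested on the WT libraries, being 0.011 without WT replicate 1 and 0.38 without WT replicate 2. None was at an unadjusted p under 0.05. Gins3, a subunit of the 4-part GINS complex of the active helicase, was the least abundant gene of the list. It had 7.00 and 6.41 RPKM in WT and 10.5 and 8.61 RPKM in JMJD1B-/- HSPCs, without overlap, and its log2 fold change was 0.50 (SE 0.25). Cdc45, the other partner of the helicase, had 33.1 and 40.9 RPKM in WT and 31.8 and 34.2 RPKM in JMJD1B-/- HSPCs. The genotypes overlapped, and its log2 fold change of −0.16 (SE 0.19) was the lowest of the 54. Cdc7, the kinase that fires origins by acting on the MCM ring, had 26.7 and 27.9 RPKM in WT and 24.1 and 25.9 RPKM in JMJD1B-/- HSPCs, with a log2 fold change of −0.13 (SE 0.18). Its shift was smaller than its error. Gins1, Gins2, Gins4 and Mcm10, which helps to open the origin, had log2 fold changes of 0.32, 0.24, 0.07 and 0.23.

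The 9 genes of polymerases alpha, delta and epsilon and of the primase had a median log2 fold change of 0.12. Scaling and single libraries moved it, to 0.067 with quantile normalization, 0.047 without WT replicate 1, 0.23 without JMJD1B-/- replicate 1 and 0.020 without JMJD1B-/- replicate 2. None was at an unadjusted p under 0.05, and 8 were above 0 (6 with quantile normalization). Pold2, an accessory subunit of the lagging-strand polymerase delta, had 16.5 and 18.9 RPKM in WT and 21.4 and 29.5 RPKM in JMJD1B-/- HSPCs. The libraries did not overlap, but the JMJD1B-/- replicates differed widely, and the log2 fold change was 0.51 (SE 0.23). Pola1, the catalytic subunit of polymerase alpha, which starts each new strand with primase, had 62.7 and 80.6 RPKM in WT and 63.7 and 64.8 RPKM in JMJD1B-/- HSPCs. Only WT replicate 2 stood apart for Pola1, and its log2 fold change was −0.15 (SE 0.19). The other catalytic subunits lay close to 0, at 0.03 for Pold1 and 0.01 for Pole, of the leading-strand polymerase epsilon. The primase genes Prim1 and Prim2 had 0.12 and 0.32, and the accessory subunits Pola2, Pold3 and Pole2 had 0.16, 0.05 and 0.19.

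Of the 6 genes of the clamp and clamp loader, 4 had log2 fold changes above 0 (3 with quantile normalization, where Rfc1 lay below 0), the median was 0.16, and 0 were at an unadjusted p under 0.05 or past adjustment in limma. The median was 0.025 and 0.32 without WT replicates 1 and 2, and 0.32 and 0.00015 without JMJD1B-/- replicates 1 and 2. Pcna, the sliding clamp that holds polymerases on DNA, had 113 and 154 RPKM in WT and 165 and 174 RPKM in JMJD1B-/- HSPCs. The JMJD1B-/- values were above the WT values, WT replicate 1 was the lowest by far, and the log2 fold change was 0.36 (SE 0.20). The 5 genes of replication factor C, the complex that opens the clamp, had values on both sides of 0. Rfc2 had 68.6 and 59.4 RPKM in WT and 50.3 and 68.1 RPKM in JMJD1B-/- HSPCs, with a log2 fold change of −0.13 (SE 0.21). Rfc2 overlapped between the genotypes. The other subunits Rfc1, Rfc3, Rfc4 and Rfc5 had log2 fold changes of 0.02, −0.03, 0.32 and 0.30. Rfc4 had the largest standard error of the 54 genes, 0.28, with 17.7 and 24.5 RPKM in WT and 20.9 and 32.6 RPKM in JMJD1B-/- HSPCs.

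The 6 genes of single-strand binding, Okazaki fragment processing and fork protection had a median log2 fold change of 0.15, with 5 above 0, against 3 with quantile normalization (median 0.077) and 6 with median-ratio scaling. Leaving out WT replicates 1 and 2 in turn gave medians of 0.023 and 0.27, and leaving out JMJD1B-/- replicates 1 and 2 gave 0.23 and 0.067. Fen1, the nuclease that trims the flap of an Okazaki fragment, had 35.1 and 44.8 RPKM in WT and 53.8 and 63.2 RPKM in JMJD1B-/- HSPCs. The genotypes did not overlap, and the log2 fold change of Fen1 was 0.56 (SE 0.20, adjusted p = 0.433 in limma with Benjamini-Hochberg adjustment). Lig1, the ligase that then seals the nick, had 47.6 and 51.6 RPKM in WT and 46.7 and 52.0 RPKM in JMJD1B-/- HSPCs, with a log2 fold change of −0.01 (SE 0.18). The 4 values of Lig1 lay close together, with a 95% interval from −0.42 to 0.40. Replication protein A coats single-stranded DNA, and its subunits Rpa1, Rpa2 and Rpa3 had log2 fold changes of 0.03, 0.21 and 0.43. Tipin, which protects stalled forks, had 0.09. With quantile normalization, Rpa1 and Tipin lay below 0.

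All 6 genes of deoxynucleotide synthesis and salvage had each JMJD1B-/- value above each WT value, where 20.1% of all genes did, and the median log2 fold change was 0.38 (0.16 without WT replicate 1). Rrm2, the small subunit of ribonucleotide reductase, which sets the supply of deoxynucleotides in S phase, had 37.3 and 54.1 RPKM in WT and 82.1 and 75.4 RPKM in JMJD1B-/- HSPCs. Its log2 fold change of 0.81 (SE 0.22, adjusted p = 0.320 in limma with Benjamini-Hochberg adjustment) was the largest of the 54. The mean was 45.7 ± 11.9 RPKM in WT and 78.8 ± 4.74 RPKM in JMJD1B-/- HSPCs (SD, n = 2 each). Rrm1, the large subunit of the same enzyme, had 76.9 and 92.6 RPKM in WT and 114 and 121 RPKM in JMJD1B-/- HSPCs. Neither subunit overlapped between the genotypes. For Rrm1 the log2 fold change was 0.48 (SE 0.18, adjusted p = 0.449 in limma with Benjamini-Hochberg adjustment). Dck, the salvage kinase of deoxycytidine, had 16.6 and 21.7 RPKM in WT and 22.8 and 21.9 RPKM in JMJD1B-/- HSPCs, and its log2 fold change of 0.24 (SE 0.21) was the smallest of the 6. Only WT replicate 1 stood clearly below the others for Dck. Thymidylate synthase (Tyms), thymidine kinase (Tk1) and the dUTPase (Dut) had log2 fold changes of 0.32, 0.43 and 0.25.

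The 5 genes of histone supply, which serve chromatin assembly behind the fork, had log2 fold changes above 0, with a median of 0.30 (0.19 without WT replicate 1), and none was at an unadjusted p under 0.05. Asf1b, the histone H3-H4 chaperone of proliferating cells, had 12.5 and 15.3 RPKM in WT and 17.4 and 23.6 RPKM in JMJD1B-/- HSPCs. Its libraries did not overlap, and the log2 fold change was 0.55 (SE 0.24) with an unadjusted p of 0.0528 in limma, the lowest of the 46 genes that did not pass. Chaf1b, a subunit of chromatin assembly factor 1, had 25.7 and 34.7 RPKM in WT and 30.4 and 34.9 RPKM in JMJD1B-/- HSPCs, with a log2 fold change of 0.12 (SE 0.21). The libraries of Chaf1b overlapped. Its partner Chaf1a had 0.30, the related chaperone Asf1a had 0.28, and Slbp, which binds the stem loop of histone mRNAs, had 0.33. With each library left out in turn, Chaf1a ran from 0.22 to 0.38, Asf1a from 0.064 to 0.49 and Slbp from 0.058 to 0.60.

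WT replicate 1 stood apart from the other libraries through much of the list. It was the lowest of the 4 in 39 genes, against 24.6% of all genes, and JMJD1B-/- replicate 2 was the highest in 40, against 39.3%. The median deviation of the 54 genes from their own 4-library mean (log2) was −0.24 and 0.022 in WT replicates 1 and 2, and 0.031 and 0.21 in JMJD1B-/- replicates 1 and 2. Over all genes tested the same medians were 0.018, 0.018, −0.087 and 0.094. Relative to these, the 54 genes stood at −0.26 and 0.0034 in the WT libraries and at 0.12 and 0.11 in the JMJD1B-/- libraries, so the JMJD1B-/- libraries were level with each other and the WT libraries were not. WT replicate 2 was above WT replicate 1 in 45 genes (83.3%), against 50.6% of all genes, by a median of 0.26 against 0.0051. JMJD1B-/- replicate 2 was above JMJD1B-/- replicate 1 in 46 genes (85.2%), against 65.6%, by a median of 0.15 against 0.18. The WT replicates differed by more than the genotype means in 32 genes and the JMJD1B-/- replicates in 21. In 16 genes both pairs of replicates differed by less than the genotype means. The shares of all genes were not computed for these counts. Single libraries also vary more than means do, so the counts are a description only.

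**Figure D4:**
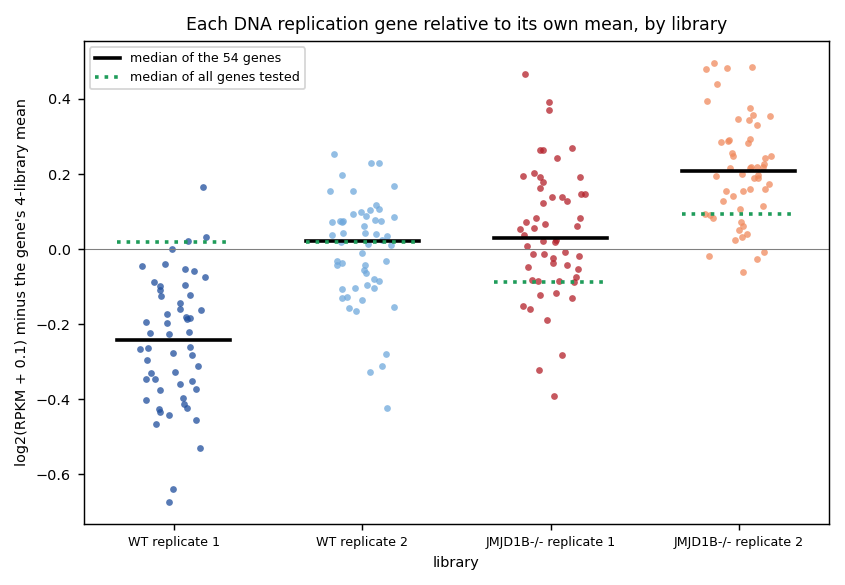
Each of the 54 genes in each library as log2(RPKM + 0.1) minus the mean of that gene over the 4 libraries, with the median of the 54 genes (black bar) and of all genes tested (green dotted bar). The medians of the 54 genes are −0.24, 0.022, 0.031 and 0.21 from left to right, and those of all genes are 0.018, 0.018, −0.087 and 0.094.

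The median log2 fold change and the calls depended on the WT libraries in the fit. Both JMJD1B-/- libraries were above WT replicate 1 in 44 genes (81.5%), against 31.8% of all genes, and above WT replicate 2 in 28 genes (51.9%), against 28.8%. Without WT replicate 1, the median log2 fold change of the 54 genes was 0.079, 40 genes were above 0, and limma called 0 at an unadjusted p under 0.05 and 0 at an adjusted one, where 1.04% of all genes were higher at that p. Of the 8 genes, 0 kept their call in that fit, which has 1 WT library. That WT library is the one with high Xist and low Y-linked transcripts (given below), unlike both JMJD1B-/- libraries. In that fit a difference of genotype and one of sex cannot be told apart. The log2 fold changes of the 8 genes did not all shrink in it. They were 0.73 for Orc1, 0.66 for Orc5 and 0.53 for Mcm5, close to or above those with all libraries, and 0.29 to 0.54 for Orc2, Cdc6, Fen1, Rrm1 and Rrm2, below them. Without WT replicate 2, the median was 0.40, and 5 genes were called (background 2.11%), of which 4 (Orc2, Cdc6, Fen1 and Rrm2) were among the 8. Without JMJD1B-/- replicate 1, which had 156 entries at 0 against 43 to 53 in the other libraries, the median was 0.31 and 13 genes were called (background 10.6%), 7 of them among the 8, and Cdc6 was the gene lost. In that fit Orc5 had an adjusted p of 0.0335 in limma, a threshold that 5.31% of all genes passed. Without JMJD1B-/- replicate 2, the median was 0.18 and 5 genes were called (background 6.13%), of which Orc2, Orc5, Cdc6 and Rrm2 were among the 8. Rrm2 had log2 fold changes from 0.54 to 1.08 over these 4 fits, Orc5 from 0.53 to 0.82, and Cdc6 from 0.29 without WT replicate 1 to 0.95 without WT replicate 2. Without WT replicate 2, Orc1, Orc5, Mcm5 and Rrm1 were at 0.50, 0.68, 0.48 and 0.61. With all libraries these genes were at 0.62, 0.67, 0.50 and 0.48. Among the uncalled genes given in full, Pcna ran from 0.14 without WT replicate 1 to 0.58 without WT replicate 2. Pold2 ran from 0.28 without JMJD1B-/- replicate 2 to 0.74 without JMJD1B-/- replicate 1, Asf1b from 0.33 to 0.77 with the same libraries left out, and Dck from 0.045 without WT replicate 1 to 0.43 without WT replicate 2. A fit with 1 library in a genotype assumes that it varied like the others. With all libraries, 12 genes were called after median-ratio scaling (background 5.33%) and 12 after quantile normalization (5.67%), 3 by limma without a trend (2.92%), and 10 with a term for the replicate number (4.81%), where Rrm2 alone passed adjustment (2.16% of all genes).

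**Figure D5:**
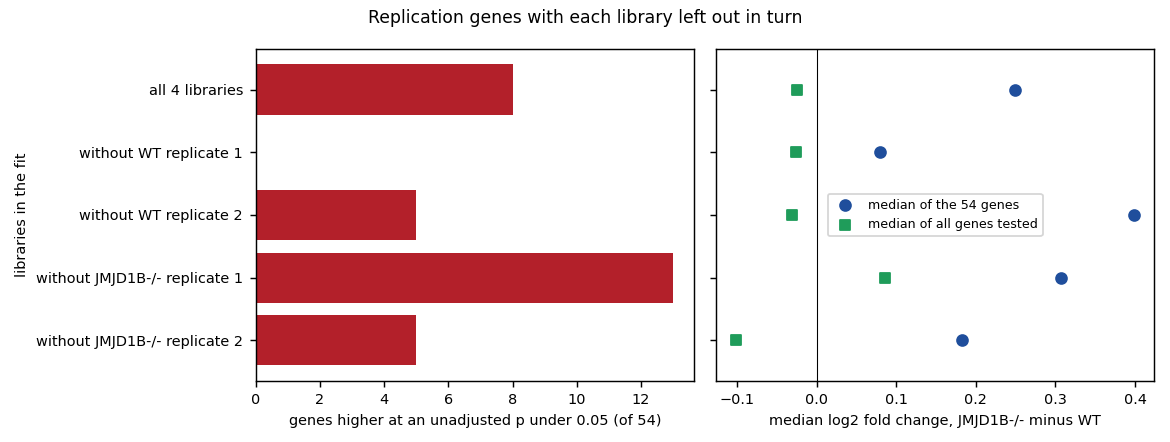
Number of the 54 genes called higher (unadjusted p under 0.05 in limma) (left, bars) and median log2 fold change of the 54 genes and of all genes tested (right, points), with all 4 libraries and with each left out. The count runs from 0 without WT replicate 1 to 13 without JMJD1B-/- replicate 1, and the median from 0.079 to 0.40.

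The libraries differed in other ways too. Kdm3b, the targeted gene, had 31.0 and 24.3 RPKM in WT and 4.00 and 4.63 RPKM in JMJD1B-/- HSPCs (log2 fold change −2.65, adjusted p = 0.0314 in limma), as the labels say. Xist was at most 0.051 RPKM except in WT replicate 2, where it was at 332 RPKM, and 4 Y-linked genes were at 0.265 to 1.33 RPKM in it and at 9.003 to 64.5 RPKM elsewhere, so the comparison without WT replicate 2 above is the one in which these genes match. Lineage markers were read as lists in the same fit. All 10 erythroid markers were above 0 and 9 were called higher at an unadjusted p under 0.05 (3.81% of all genes), with a median log2 fold change of 1.41 and a lowest adjusted p of 0.162 in limma. Their summed levels were 489 and 735 RPKM in WT and 1336 and 1931 RPKM in JMJD1B-/- HSPCs. Markers called lower, where 6.33% of all genes were, numbered 3 of 10 for stem cells (median −0.60, and −0.35 over markers with a mean of at least 1 RPKM), 4 of 8 for megakaryocytes (−0.64), 5 of 8 for granulocytes (−2.12, with 2 called higher), 3 of 7 for monocytes and macrophages (−1.09) and 6 of 8 for basophils, eosinophils and mast cells (−2.49). Adjusted p under 0.05 in limma was reached by 1 granulocyte and 1 basophil, eosinophil and mast cell marker and by 0 markers of the other lists. Sums were 196 and 181 RPKM in WT and 128 and 175 RPKM in JMJD1B-/- HSPCs for stem cell markers, 712 and 640 against 280 and 405 RPKM for megakaryocyte markers, and 292 and 202 against 87.2 and 53.9 RPKM for granulocyte markers. Other lists had a library that stood apart within a genotype. The monocyte and macrophage sum was 162 and 169 against 142 and 44.6 RPKM. The basophil, eosinophil and mast cell sum was 6096 and 1627 against 4577 and 1202 RPKM, and Prg2 alone made up 5377 and 4328 RPKM of it in the first replicates. Of 7 T and NK cell markers, 2 were called higher (median 1.06, from −0.19 without JMJD1B-/- replicate 1 to 2.16 without JMJD1B-/- replicate 2, and 0.53 without WT replicate 1), and their sum was 10.6 and 14.9 against 44.7 and 9.19 RPKM. Of 5 stroma and endothelium markers, 1 was called lower (median −1.44, from −2.67 without WT replicate 1 to 0.055 without WT replicate 2, and −0.83 without JMJD1B-/- replicate 2), and their sum was 37.3 and 59.5 against 23.6 and 10.3 RPKM. The 1 of 8 B cell markers tested had 3.28 and 1.99 against 1.22 and 0.631 RPKM (Cd79b, log2 fold change −1.43, called lower). Without JMJD1B-/- replicate 2 the medians were −1.30 for granulocyte and −0.51 for monocyte and macrophage markers, and without JMJD1B-/- replicate 1 they were −0.31 for megakaryocyte and −1.66 for monocyte and macrophage markers. The megakaryocyte median was −0.39 without WT replicate 1. None of the markers tested was at 0 in any library. The part of cell composition in the values of the replication genes was not tested, and in bulk RNA fewer cells of a type and less RNA per cell cannot be told apart.

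Neighbouring pathways were read from lists of other genes. Of 27 further replication and replisome genes tested, 20 were above 0 (47.0% of all genes were) with a median log2 fold change of 0.15, and 0 were at an unadjusted p under 0.05 or after adjustment in limma. This median was 0.016 without WT replicate 1, 0.25 without WT replicate 2 and 0.086 without JMJD1B-/- replicate 2. Of 25 other genes of nucleotide synthesis, 17 were above 0 with a median of 0.21, which was 0.11 with quantile normalization, 0.094 without WT replicate 1 and 0.0071 without JMJD1B-/- replicate 2. Among them Mthfd1 and Mthfd2, enzymes of folate metabolism, were higher at an unadjusted p under 0.05 (3.81% of all genes were), and no gene of that list passed adjustment in limma (lowest adjusted p 0.449). Mthfd1 had 64.8 and 85.8 RPKM in WT and 94.4 and 129 RPKM in JMJD1B-/- HSPCs, and Mthfd2 had 6.59 and 9.16 against 11.7 and 13.3 RPKM. Of 24 genes of E2F factors, the RB family and G1/S cyclins, 16 were above 0 with a median of 0.084 (0.19 and 0.048 without JMJD1B-/- replicates 1 and 2), and Ccne1, E2f2 and Ccna2 were at an unadjusted p under 0.05, as were 3.81% of all genes in that direction. Ccne1, the cyclin E that drives entry into S phase, had 19.4 and 26.3 RPKM in WT and 43.6 and 48.7 RPKM in JMJD1B-/- HSPCs, a log2 fold change of 1.03 (SE 0.21, adjusted p = 0.204 in limma with Benjamini-Hochberg adjustment). E2f2, an activating E2F factor, had 5.83 and 6.44 against 11.1 and 10.1 RPKM, and Ccna2, the S-phase cyclin A, had 69.7 and 84.3 against 104 and 103 RPKM. None of these 5 genes overlapped between the genotypes, but they were picked for a low p in the same libraries. Over the whole lists, 9 of the 25 and 10 of the 24 genes had both JMJD1B-/- values above both WT values (20.1% of all genes). The reverse order was seen in 4 and 1 genes (22.7% of all genes). Of 20 genes of G2/M and mitosis, 16 were above 0 with a median of 0.17 (0.11 with quantile normalization and 0.078 without WT replicate 1), and 0 were at an unadjusted p under 0.05 or after adjustment in limma.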

How the data were processed

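Polyadenylated RNA of HSPCs was sequenced after library preparation with a TruSeq kit, in 2 WT and 2 JMJD1B-/- libraries, and the 31 other samples of the series were not used here. The authors deposited 1 table of RPKM values per gene and library, to which 1 had been added, as the lowest value of exactly 1 shows. The table has 12024 entries, and no gene whose highest value is under 2 is listed. The submitters' processing notes name mm9, TopHat2 and Novoalign without a role, and the program and annotation behind the RPKM are not given in the sources used here.

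RPKM was taken as the deposited value minus 1, and the 42 names with more than 1 entry were averaged (none is a replication gene). Genes with a mean of at least 0.5 RPKM were fitted together on log2(RPKM + 0.1), a scale that understates the change of low genes, with limma 3.58.1 in R 4.3.3 (eBayes with a trend, two-sided, Benjamini-Hochberg adjustment over all genes tested, no covariate). Means are given ± SD (n = 2). The two-tailed test with equal variances that the study names in general was run on each gene alone as an alternative. Depth was estimated from genes under 3 RPKM whose values are whole multiples of 1 read; 44 to 112 genes per library gave it, against 11 to 28 by chance. This depth is uncertain by a factor of 2, since in WT replicates 1 and 2 about as many genes (57 and 51) also met a depth 0.5 times as large, and in JMJD1B-/- replicate 1, 93 genes met one 2 times as large, against 112. The order of the libraries by depth is therefore uncertain too. No count test was run. limma was tested on simulated data with 200 changed genes among 11863. Promoters came from RefSeq in GRCm38.p6, a different build from mm9, and were matched by symbol.

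The 54 genes, the lists and the tests were chosen with earlier results of these data known. Values in every library are given for genes with an unadjusted p under 0.05 and for the highest and lowest log2 fold change of each role (21 genes), and the rest by fold change, counts and ranges. Values named outside that rule were added after they were seen. Other pathway genes are named at an unadjusted p under 0.05, and marker lists are given by counts, medians and sums. Of the listed other genes, Ticrr, Supt16 and 12 markers were not analysed here. There were 14 alternatives, namely a pseudocount of 1 or 0.01, no filter, a mean of at least 1 RPKM, median-ratio scaling, quantile normalization, limma with no trend, the test of each gene alone, a replicate block, the highest entry per name and leaving out each library. Python 3.11.15 with pandas 2.3.3, numpy 2.4.6, scipy 1.17.1 and matplotlib 3.10.9 made the tables and figures.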

Additional observations from a re-analysis of the deposited data

How the results depend on the processing

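At an unadjusted p under 0.05, 8 replication genes were called higher in JMJD1B-/- HSPCs, and the count was 3 with limma without a trend, 3 with the test of each gene alone and 12 under either scaling; with each library left out it lay between 0 and 13. The number past an adjusted p of 0.05 was 0 in limma, 0 to 1 with each library left out, and 1 with the replicate block (Rrm2, adjusted p = 0.0240), where 10 genes had an unadjusted p under 0.05 against a background of 4.81%. Over all genes, the deviations of same-numbered libraries had a correlation of −0.0543. Such a value cannot show whether libraries were handled in pairs, so the block was not used as added evidence. The median log2 fold change was 0.079 to 0.40 with each library left out, and 0.22 to 0.26 under both scalings, which moved the all-gene median by at most 0.042. With quantile normalization 41 genes lay above 0, and 48 with median-ratio scaling. The count of genes with JMJD1B-/- libraries above WT libraries was 28 to 44 with each library left out, where fewer libraries have to be separated. For the 21 genes given in full, 246 of the comparisons with an alternative kept direction and side of the threshold, 28 lost the call, 9 gained it and 11 changed sign, all of them in genes not called in either fit. Mcm6 was at −0.056 with quantile normalization and Lig1 at 0.0031 with median-ratio scaling. The other changes of sign came with a library left out, where the log2 fold change ranged from −0.052 to 0.19 for Mcm6, −0.086 to 0.069 for Lig1, −0.45 to 0.23 for Gmnn, −0.093 to 0.34 for Chaf1b, −0.33 to 0.036 for Pola1 and −0.34 to 0.093 for Rfc2. Of the 9 roles, the order of the median fold changes also changed with the library left out. The causes were not tested. With 2 libraries per genotype, fold changes of 1.5 were mostly not detectable after adjustment.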
